A study of Mus musculus with 61 samples.

Results

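The Polycomb group genes described here were Ezh2, Ezh1, Eed, Suz12, Rnf2, Bmi1, Cbx2, Cbx7 and Cbx8, which are 9 of the 55052 genes of the deposited expression table. They were taken by gene symbol, and each had 1 row. Their mRNA levels were measured in 61 RNA-seq libraries of mouse stembryos (gastruloids), aggregates of embryonic stem (ES) cells that form an elongating trunk-like structure after a pulse of Chiron, an agonist of the Wnt pathway, between 48 h and 72 h. The wild type (wt) gave 26 libraries. Of these, 16 formed a time course of 8 stages (72, 84, 96, 108, 120, 132, 144 and 168 h after aggregation) with 2 libraries each, and 10 lay outside the time course, at 96, 120 and 144 h. The other 35 libraries came from 8 lines altered at the HoxD gene cluster, for which the study asked how CTCF binding sites (CBSs) order the activation of Hoxd genes.

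The mutant lines were Del(CBS1), Del(CBS2), Del(CBS1-2) and Del(d1-d4) at 96 h and 120 h, Del(CBS4) at 120 h and 144 h, Del(CBS1-5) at 96, 120 and 144 h, and Del(sub-TAD1) and Ins(2xCBS-d4d8) at 96 h and 120 h. They lacked the named CBSs, the segment from Hoxd1 to Hoxd4 or the telomeric sub-TAD1, or carried 2 CBSs inserted between Hoxd4 and Hoxd8. Each condition had 2 libraries, except Del(sub-TAD1) at 96 h, which had 3. Most lines were CRISPR clones of 1 ES cell line, and Del(CBS1-2) was made from Del(CBS1). Del(CBS1-5) and Del(sub-TAD1) cells were instead derived from blastocysts of mutant mice, the latter with a transgene that restored Mtx2, so that in these 2 lines the deletion and the origin of the cells cannot be told apart. All groups received the same Chiron pulse, each library was a pool of stembryos, and from 108 h only elongating ones were collected.

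Polycomb proteins keep developmental genes silent, among them the Hox clusters, and act in a pair of complexes. PRC2 contains EED, SUZ12 and a methyltransferase, EZH2 or its paralogue EZH1, and places the repressive mark H3K27me3. PRC1 contains the E3 ligase RNF2 (RING1B) or RING1 and a PCGF protein such as BMI1 (PCGF4) or PCGF2, and it modifies histone H2A. In canonical PRC1, a CBX subunit such as CBX2, CBX6, CBX7 or CBX8 binds H3K27me3, and CBX7 is known as the main such subunit of pluripotent ES cells, replaced by others such as CBX2 and CBX8 upon differentiation.

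Levels are given as FPKM, the number of sequenced fragments scaled to transcript length and library size, so that values can be set side by side between genes. Fold changes are on the log2(FPKM + 0.1) scale with their standard error (SE). The width of the bounds deposited beside each value corresponds to 14000000 to 36200000 fragments a library (median 22400000). Behind a member's value stood 1488 to 6796 fragments for Cbx2 and 1887 to 3497 for Ezh2, but 12.1 to 832 for Cbx7 and 14.7 to 180 for Cbx8, whose bounds reached 57.6% and 52.1% of the value at their widest. The libraries formed 2 sets: in 28 the mitochondrial transcript mt-Co2 stood at 576 to 1464 FPKM (set 1), and in 33, the whole time course included, at 0.205 to 3.85 FPKM (set 2). Each mutant was therefore compared with the wild type of its own stage and set. Hoxd1, Hoxd3 and Hoxd4 were listed at 0 in the 4 Del(d1-d4) libraries, against 4.59 to 35.4 FPKM in the 6 wild-type libraries of its set, whereas Mtx2 was at 19.2 to 25.3 FPKM in the Del(sub-TAD1) line that carries the transgene.

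Over the wild-type time course, 8 of the 9 genes differed between 168 h and 72 h, 5 higher and 3 lower. Cbx7 fell most, to a level 13.6 times lower, while Cbx8 and Bmi1 rose 5.30-fold and 4.19-fold and Cbx2 2.32-fold. Ezh2 and Rnf2 rose about 1.5-fold, Ezh1 and Suz12 fell, and only Eed did not pass the test. In the same contrast 56.5% of all 13634 genes tested passed (limma, adjusted p under 0.05), 29.5% higher and 27% lower. Over any of the 8 stages, 8 of the 9 genes and 64.6% of all genes passed. In these bulk libraries, a change in the number of cells of a type and a change in the RNA per cell cannot be told apart.

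Among the PRC2 genes, Ezh2 (chr6:47530139-47595341, minus strand, mm10), the main methyltransferase of dividing cells, was at 75.3 and 72.6 FPKM in the 2 libraries at 72 h, 83.2 and 80.2 at 84 h, 104 and 109 at 96 h, and 104 and 110 at 168 h. Every library from 96 h on lay above all 4 earlier ones, and the increase from 72 h to 168 h was 0.53 ± 0.07 (log2 fold change ± SE, adjusted p = 0.000148). Ezh1 (chr11:101191115-101226463, minus strand), the paralogue that prevails in resting cells, went the other way. It was at 5.99 and 7.72 FPKM at 72 h, 4.45 and 4.03 at 84 h, 3.03 and 4.61 at 96 h, 5.53 and 4.27 at 120 h, and 2.81 and 2.94 at 168 h. The replicates at 96 h and 120 h stood apart from each other, and the log2 fold change from 72 h to 168 h was -1.21 ± 0.20 (adjusted p = 0.000656). Suz12 (chr11:79993106-80034123, plus strand), the scaffold of PRC2, declined from 48.8 and 41.0 FPKM at 72 h to 25.1 and 25.3 FPKM at 144 h and stood at 28.3 and 29.8 FPKM at 168 h (log2 fold change -0.62 ± 0.14, adjusted p = 0.00347). Eed (chr7:89954654-89980983, minus strand), which reads H3K27me3 within PRC2, stayed within 49.4 to 63.01 FPKM in all 16 libraries (log2 fold change 0.08 ± 0.10, adjusted p = 0.485). Its highest value was the replicate 2 library at 168 h, and without the other 168 h library the log2 fold change was 0.24 with a limma adjusted p of 0.0498. Ezh2 was the highest of the 9 genes at both 72 h (mean 73.9 FPKM) and 168 h (107 FPKM).

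Rnf2 and Bmi1, the members that belong to the PRC1 core, both rose. Rnf2 (chr1:151458004-151500955, minus strand), the main E3 ligase, was at 41.6 and 37.9 FPKM at 72 h, 51.3 and 55.2 at 144 h, and 56.8 and 63.8 at 168 h. The 2 libraries at 168 h were the highest of the course, and the log2 fold change was 0.60 ± 0.12 (adjusted p = 0.00191). Bmi1 (chr2:18677018-18686629, plus strand) was at 7.47 and 6.62 FPKM at 72 h, 9.13 and 8.05 at 84 h, 13.9 and 19.2 at 96 h, 28.4 and 24.2 at 108 h, 38.7 and 24.3 at 120 h, and 26.8 and 32.2 at 168 h. Its rise fell mainly between 84 h and 108 h, after which the libraries varied without order, the 120 h replicates being the widest apart (log2 fold change 168 h to 72 h 2.05 ± 0.22, adjusted p = 4.0e-05). At 72 h Bmi1 and Ezh1 could not be ranked beyond the spread of their replicates, whereas at 168 h Bmi1 (mean 29.5 FPKM) overlapped with Suz12 (29.0 FPKM).

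**Figure D1:**
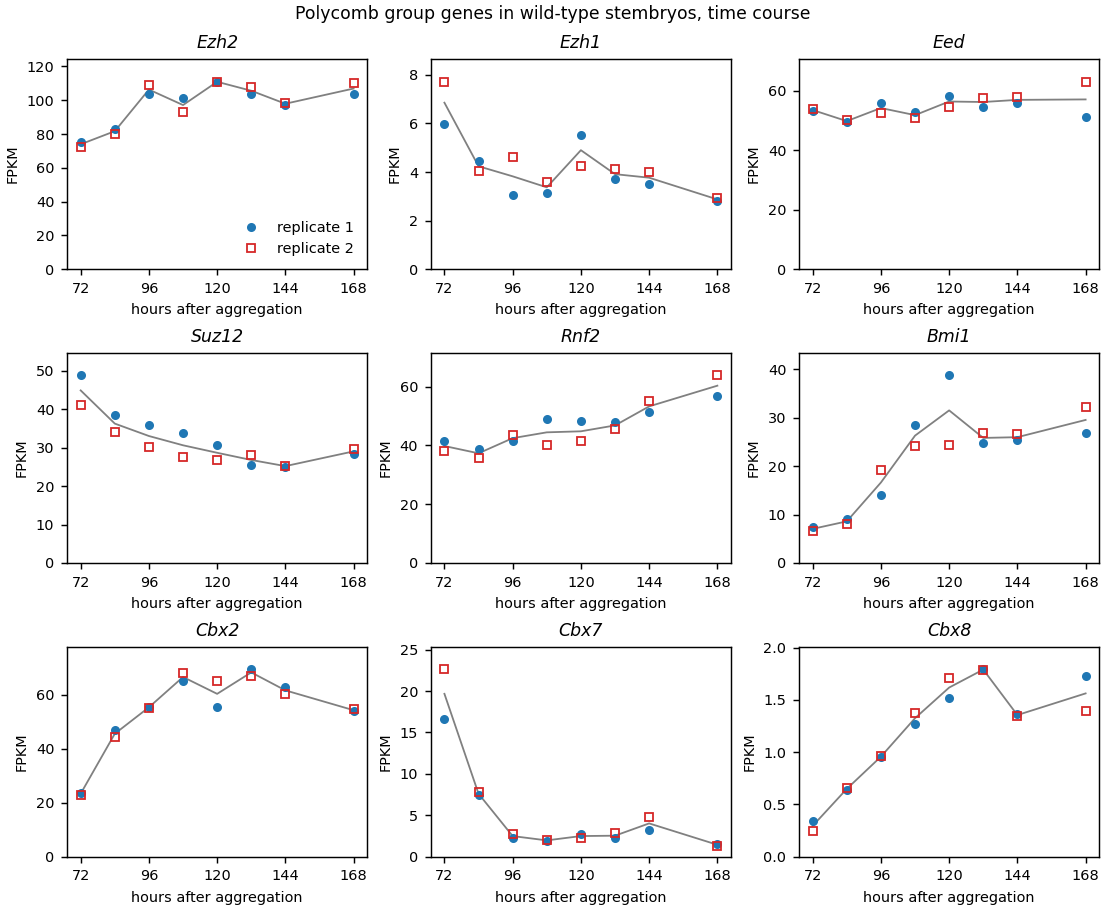
FPKM of the 9 genes (y axis, linear, starting at 0) against hours after aggregation (x axis) in the wild-type time course, with replicate 1 as filled circles, replicate 2 as open squares and the mean of the 2 as a line. Cbx7 drops from 16.7 and 22.7 FPKM to 2.29 and 2.69 FPKM between 72 h and 96 h, Bmi1, Cbx2 and Cbx8 climb over the same stages, and Eed remains between 49.4 and 63.01 FPKM.

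Of the CBX genes, Cbx7 (chr15:79915807-79971119, minus strand) was at 16.7 and 22.7 FPKM at 72 h, 7.39 and 7.81 at 84 h, 2.29 and 2.69 at 96 h, 1.88 and 2.06 at 108 h, 2.78 and 2.21 at 120 h, 2.25 and 2.83 at 132 h, 3.21 and 4.84 at 144 h, and 1.54 and 1.35 at 168 h. Both libraries at 144 h lay above all those from 96 h to 132 h, and both at 168 h below them (log2 fold change 168 h to 72 h -3.67 ± 0.22, adjusted p = 9.12e-07). Cbx2 (chr11:119022962-119031270, plus strand) was at 23.7 and 23.1 FPKM at 72 h and already at 46.9 and 44.3 at 84 h, reached 69.6 and 67.1 at 132 h, and was at 54.0 and 54.7 at 168 h (log2 fold change 1.21 ± 0.08, adjusted p = 1.87e-06). Cbx8 (chr11:119036305-119040969, minus strand), whose gene ends 5034 bases from that of Cbx2, was the lowest of the 9 genes at 72 h, at 0.343 and 0.247 FPKM, was at 0.640 and 0.658 at 84 h and 0.953 and 0.961 at 96 h, and reached 1.73 and 1.40 at 168 h (log2 fold change 2.08 ± 0.13, adjusted p = 1.1e-06). The values of Cbx8 and Cbx7 overlapped at 168 h, where they were the lowest of the 9 genes.

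Between neighbouring stages, 9 of 63 gene and interval pairs passed the test, against 7.59% of all such pairs. From 72 h to 84 h these were Cbx2 (log2 fold change 0.96 ± 0.08), Cbx8 (0.93 ± 0.13) and Cbx7 (-1.34 ± 0.22), 3 of 9 genes where 14.9% of all genes passed. From 84 h to 96 h, 5 of 9 passed against 19% of all genes: Ezh2 (0.38 ± 0.07), Bmi1 (0.93 ± 0.22), Cbx2 (0.28 ± 0.08) and Cbx8 (0.50 ± 0.13) rose and Cbx7 (-1.57 ± 0.22) fell. No pair passed in the 4 intervals from 96 h to 144 h, where 5.82%, 4.01%, 0.653% and 1.31% of all genes did. From 144 h to 168 h Cbx7 fell again (-1.39 ± 0.22, adjusted p = 0.00509), 1 of 9 against 7.41%. The test used the time-course libraries at 144 h, at 3.21 and 4.84 FPKM, whereas the 2 wild-type libraries at 144 h outside the time course lay within the range at 168 h. In these time-course libraries 3 cardiac genes summed to 37.4 and 57.98 FPKM, against 1.83 and 1.38 in those outside it. The pluripotency gene Nanog was at 4.18 and 4.71 FPKM against 0.192 and 0.380, and the 6 pluripotency genes listed below summed to 34.6 and 32.3 against 4.31 and 6.31. Presomitic mesoderm genes summed to 37.2 and 37.8 FPKM against 4.61 and 4.71, while neural genes were lower, at 40.5 and 44.9 against 69.96 and 66.1. The part of these differences in the Cbx7 result was not tested. With all 61 libraries in the fit 15 pairs passed. The 84 h to 96 h calls of Bmi1, Cbx2 and Cbx8 were lost without individual libraries of these stages (limma adjusted p up to 0.103, 0.184 and 0.104). That of Cbx2 was also lost with no filter and without most libraries of later stages, in 13 of 23 alternatives in all.

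Cbx2, Cbx6, Cbx7 and Cbx8 together came to 58 and 63 FPKM at 72 h and 65.9 and 66.9 FPKM at 168 h, and reached 82.0 and 80.0 FPKM at 132 h. Cbx7 supplied 32.3% ± 5.1 (SD, n = 2) of the sum at 72 h, 11.6% ± 1.2 at 84 h, 3.77% ± 0.55 at 96 h and 2.17% ± 0.22 at 168 h. Cbx2 went from 38.7% ± 3.0 at 72 h to 69.5% ± 1.5 at 84 h and 83.8% ± 2.3 at 96 h, and was at 81.8% ± 0.17 at 168 h. Cbx8 went from 0.491% ± 0.142 at 72 h to only 2.35% ± 0.38 at 168 h. These are shares of mRNA and not of protein.

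**Figure D2:**
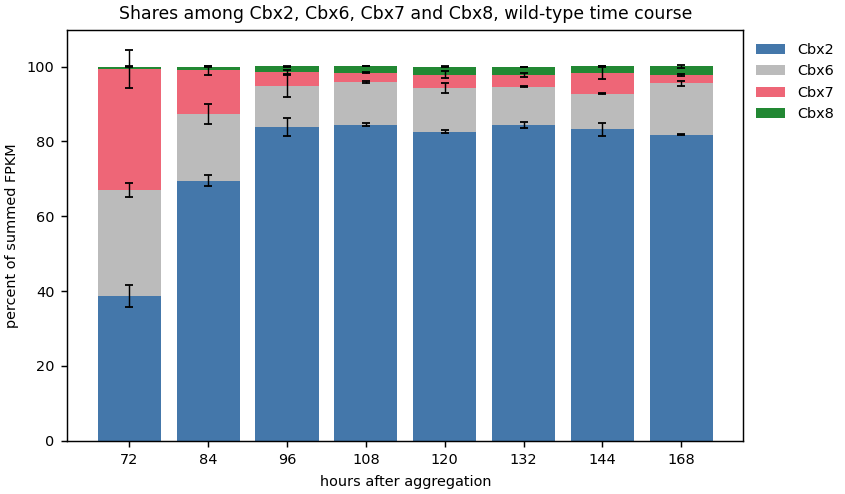
Percent of the summed FPKM of Cbx2, Cbx6, Cbx7 and Cbx8 (y axis) at each stage of the wild-type time course in hours after aggregation (x axis), as stacked bars of the mean of 2 libraries with their SD as error bars. The Cbx7 segment shrinks from 32.3% at 72 h to 3.77% at 96 h and that of Cbx2 grows from 38.7% to 83.8%.

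Ratios of paralogues that can take the same place in a complex were followed with stage, over the 16 libraries and 4 ratios (permutation test with 100000 resamples, two-sided, Benjamini-Hochberg adjusted over the 4 ratios). Each ratio includes a gene already called in these same libraries, so the tests describe the balance and are no separate support for a change. The log2 ratio of Bmi1 to Pcgf2 rose from -2.69 and -2.99 at 72 h to -0.51 and -0.17 at 168 h (Pearson's r = 0.844, permutation p = 6.0e-05, adjusted 0.00024; Spearman's rho = 0.840, permutation p = 8.0e-05, adjusted 0.00032). The log2 ratio of Ezh1 to Ezh2 fell from -3.63 and -3.22 to -5.16 and -5.18 (r = -0.738, permutation p = 0.00073, adjusted 0.000973; rho = -0.740, permutation p = 0.00156, adjusted 0.00208). The log2 ratio of Cbx7 to Cbx8 fell from 5.24 and 6.04 to -0.16 and -0.05 (r = -0.769, permutation p = 0.00034, adjusted 0.00068; rho = -0.763, permutation p = 0.001, adjusted 0.002). That of Cbx7 to Cbx2 fell from -0.51 and -0.03 to -5.05 and -5.24, with -5.05 and -4.98 already at 108 h (r = -0.708, permutation p = 0.00148, adjusted 0.00148; rho = -0.639, permutation p = 0.00995, adjusted 0.00995). Without the 2 libraries farthest from the median stage, those at 168 h, r was 0.833, -0.647, -0.754 and -0.699 in the same order, and rho of Cbx7 to Cbx2 was -0.461 with an adjusted permutation p of 0.0998, so that its rank relation rested on these libraries. Within replicate 1 and replicate 2 alone (n = 8 each), every r kept its sign, at 0.750 and 0.956 for Bmi1 to Pcgf2, -0.673 and -0.809 for Ezh1 to Ezh2, -0.801 and -0.745 for Cbx7 to Cbx8, and -0.720 and -0.700 for Cbx7 to Cbx2. All had adjusted exact permutation p values for r under 0.05 except Ezh1 to Ezh2 in replicate 1, at 0.067. By Spearman's rho, only Ezh1 to Ezh2 and Bmi1 to Pcgf2 in replicate 2 passed (adjusted exact permutation p = 0.0214 and 0.00159), and the adjusted exact permutation p of the others lay between 0.0615 and 0.132.

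The sequence just upstream of the annotated start is shown for 2 genes that rose, Bmi1 and Cbx8, and 2 that fell, Ezh1 and Suz12. The RefSeq promoter table (GRCm38.p6) held an entry for 8 of the 9 genes, and only bases outside every annotated exon are printed, 5′ to 3′ on the gene's strand. Capitals mark matches on either strand to 4 motifs: the E-box CACGTG, the CCAAT box CCAAT, the GC box GGGCGG and the E2F motifs TTTCCCGC and TTTGGCGC. Adjoining or overlapping matches run together, as in Cbx8, where an E-box and a GC box adjoin.
Bmi1, chr2:18676768-18677017, plus strand: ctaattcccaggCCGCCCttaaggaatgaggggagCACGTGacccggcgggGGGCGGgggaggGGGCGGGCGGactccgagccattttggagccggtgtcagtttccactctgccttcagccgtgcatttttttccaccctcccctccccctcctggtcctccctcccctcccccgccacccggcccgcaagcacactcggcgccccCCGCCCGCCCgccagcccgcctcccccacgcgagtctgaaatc
Cbx8, chr11:119040970-119041163, minus strand: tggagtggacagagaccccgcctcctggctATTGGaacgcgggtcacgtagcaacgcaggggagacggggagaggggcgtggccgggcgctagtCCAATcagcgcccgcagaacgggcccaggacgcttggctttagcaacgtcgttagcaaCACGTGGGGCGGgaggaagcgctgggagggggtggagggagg
Ezh1, chr11:101226464-101226713, minus strand: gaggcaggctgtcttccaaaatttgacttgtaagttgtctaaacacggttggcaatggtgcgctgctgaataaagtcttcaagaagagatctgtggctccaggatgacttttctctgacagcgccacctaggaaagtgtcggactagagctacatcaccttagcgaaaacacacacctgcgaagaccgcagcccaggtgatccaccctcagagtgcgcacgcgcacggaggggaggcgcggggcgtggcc
Suz12, chr11:79992856-79993105, plus strand: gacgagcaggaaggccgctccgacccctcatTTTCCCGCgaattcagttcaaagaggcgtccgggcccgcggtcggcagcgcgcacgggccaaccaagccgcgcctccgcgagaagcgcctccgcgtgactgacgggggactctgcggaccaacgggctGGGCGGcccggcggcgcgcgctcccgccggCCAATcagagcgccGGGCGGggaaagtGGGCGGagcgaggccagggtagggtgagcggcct

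Bmi1 held 1 E-box and 6 GC boxes and Cbx8 1 E-box, 1 GC box and 2 CCAAT boxes. Suz12 held 3 GC boxes, 1 CCAAT box and 1 E2F motif, while the Ezh1 window held none of the 4. Among all 32851 windows of 250 bases in the table, 6.02% held the E-box, 33.8% the CCAAT box, 32.7% the GC box and 1.3% an E2F motif, and among windows of 194 bases, the length shown for Cbx8, 5.13%, 28.8%, 30.8% and 1.08%. These matches are descriptions of the letters and not of binding.

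By list, 1 of 6 PRC2 core genes, 1 of 6 accessory PRC2 genes, 4 of 8 PRC1 core genes, 4 of 9 canonical and 2 of 11 variant PRC1 genes and 2 of 4 PR-DUB genes rose, the 9 genes included, while 3, 3, 2, 4, 5 and 1 fell, against 29.5% higher and 27% lower over all genes. Of the opposing enzymes 0 of 7 rose and 5 fell, and of the Polycomb targets outside the Hox clusters 5 of 11 rose and 1 fell. Beyond the 9 genes, 35 other PRC2, PRC1 and PR-DUB genes of a wider list were tested, of which 9 rose, 15 fell and 11 did not pass between 72 h and 168 h, with a median log2 fold change of -0.19 against 0.01 over all genes. Of the other PRC2 core genes, the histone chaperone Rbbp7 fell from 443 and 486 to 255 and 265 FPKM (log2 fold change -0.84 ± 0.08) and Rbbp4 did not pass (0.15 ± 0.16). The accessory subunits Jarid2 (-0.56 ± 0.19) and Mtf2 (-0.64 ± 0.12), which help to recruit PRC2, fell, and Aebp2 did not pass (-0.09 ± 0.11). In PRC1, Ring1, the paralogue of Rnf2, rose from 7.18 and 5.03 to 9.93 and 9.81 FPKM (0.71 ± 0.15), and Pcgf2, the paralogue of Bmi1, did not pass (-0.45 ± 0.21). The CBX gene Cbx6 fell from 17.3 and 17.1 to 8.64 and 9.50 FPKM (-0.91 ± 0.22). The canonical PRC1 subunit Phc1 fell from 89.0 and 111 to 44.7 and 40.2 FPKM (-1.23 ± 0.14).

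Apart from the well-known partners above, the largest falls in the wider list were those of the developmental regulator Lhx1 (-3.23 ± 0.79), the PRC1-associated Scml2 (-2.33 ± 0.25) and the PR-DUB subunit Asxl2 (-2.19 ± 0.36), and the largest rises were those of the neural regulators Pax6 (7.52 ± 0.43), Olig2 (6.97 ± 0.32) and Pax3 (6.68 ± 0.35), which are Polycomb targets in ES cells. Olig2 was listed at 0 in both libraries at 72 h and at 12.4 FPKM in both at 168 h, so that its fold depends on the pseudocount. The Lhx1 libraries at 72 h stood apart, at 50.9 and 6.65 FPKM. Of the enzymes that remove H3K27 methylation, Kdm6a fell (-0.36 ± 0.08) and Kdm6b did not pass (0.40 ± 0.23). Cdkn2a, a cell cycle inhibitor repressed by BMI1 and CBX7, lay between 2.17 and 8.62 FPKM and did not pass (0.23 ± 0.23).

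**Figure D3:**
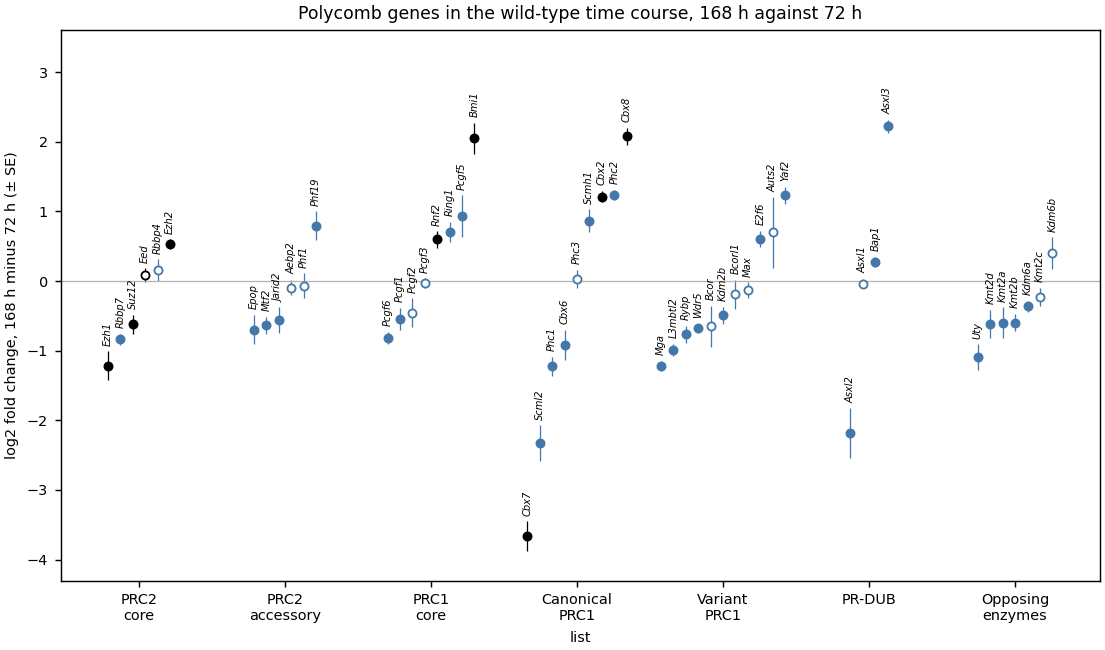
Log2 fold change of 168 h against 72 h with its standard error (y axis) for the tested genes of each list (x axis), ordered by value within a list. Members are black and other genes blue, and filled circles passed the test (adjusted p under 0.05). Cbx7 (-3.67) and Cbx8 (2.08) lie at opposite ends of the canonical PRC1 list, and Ezh2 (0.53) and Ezh1 (-1.21) of the PRC2 core.

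The genes whose profiles over the 16 libraries were most like that of Cbx8 were Boc (r = 0.988), Hs3st3a1 (0.985) and Rnf122 (0.985). For Cbx7, the gene with the largest fall, they were the pluripotency factor Nanog (r = 0.974), L1td1 (0.974) and Trpa1 (0.968). These are descriptions over 13634 genes in libraries that share their stages. Nanog went from a mean of 74.2 FPKM at 72 h to 2.21 at 168 h, and the summed FPKM of 6 naive pluripotency genes (Zfp42, Klf4, Esrrb, Tbx3, Nanog and Pou5f1) from 1196 and 1220 at 72 h to 546 and 575 at 84 h, 42.4 and 76.9 at 96 h, and 16.8 and 14.4 at 168 h. Of these 6 genes, Pou5f1 marks pluripotency in general, so that the sum does not measure the naive state alone. The summed FPKM of 6 proliferation genes stayed within 626 to 851 in all 61 libraries.

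The wild-type libraries outside the time course gave a separate measure of the interval from 96 h to 120 h, with 3 libraries of set 1 at each stage. There 6 of the 9 genes passed, where 24.2% of all genes did, while in the time course Bmi1 and Cbx8 passed and 13.2% of all genes did. Bmi1 was at 10.5 to 13.8 FPKM (median 12.5) at 96 h and at 21.2 to 23.4 at 120 h, with no overlap (log2 fold change 0.85 ± 0.15, adjusted p = 3.94e-05, against 0.90 ± 0.22 in the time course). Cbx8 went from 0.567 to 0.896 FPKM at 96 h to 1.10 to 1.48 at 120 h (0.83 ± 0.17, adjusted p = 0.000389, against 0.70 ± 0.13). Ezh2 (0.24 ± 0.08), Ezh1 (0.42 ± 0.14) and Cbx2 (0.19 ± 0.07) were also higher at 120 h and Suz12 lower (-0.29 ± 0.09). Their time-course values were 0.06 ± 0.07, 0.37 ± 0.20, 0.12 ± 0.08 and -0.20 ± 0.14, none of which passed.

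Of these wild-type libraries, replicate 3 stood apart for Cbx7, which was at 1.93, 1.66 and 6.83 FPKM in replicates 1 to 3 at 96 h and at 1.95, 1.58 and 6.54 at 120 h. The naive pluripotency sum was 31.9, 33.5 and 111 at 96 h and 10.3, 9.56 and 87.7 at 120 h, highest in the same libraries. Without replicate 3 at both stages 4 of the 9 genes passed (Ezh1, Bmi1, Cbx2 and Cbx8), an alternative added after these values were seen. Leaving out single libraries left 3 to 5 genes, with 3 without replicate 2 at 96 h or replicate 1 or 2 at 120 h, and Bmi1 and Cbx8 passed each time.

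Against the wild type of the same stage and set, 17 of the gene and comparison pairs (9 genes in 17 comparisons) passed in the mutants. This was 11.1% of the pairs, where 6.25% of the pairs of all genes passed. Of the 17, 10 were higher and 7 lower, against 3.58% higher and 2.67% lower over all genes. The mutant and wild-type ranges were apart in these pairs, but also in pairs that did not pass. One such pair was Ezh2 in Del(CBS1-2) at 96 h, at 85.8 and 86.9 FPKM against 91.2 to 97.1. The share of separate ranges over all genes is not given here, so that separation adds no support to a call. By comparison, 11.9%, 7.85% and 30.7% of all genes passed in Del(CBS1-5) at 96, 120 and 144 h, and 12.4% in Del(CBS4) at 120 h. In Del(sub-TAD1) 14.1% and 6.6% passed at 96 h and 120 h, and in Ins(2xCBS-d4d8) 9.92% and 4.38%. The 17 comparisons share control libraries within a stage and set. The 45 pairs of Del(CBS1-5) and Del(sub-TAD1), derived from blastocysts, held 11 of the 17, and the 108 pairs of the other 6 lines held 6. Over all genes, too, more passed in the former lines, at 6.6% to 30.7% a comparison against 0.199% to 12.4% in the latter. The split is therefore not particular to the 9 genes. No pair passed in Del(CBS1), Del(CBS2), Del(CBS1-2) or Del(d1-d4), at either stage, where limma log2 fold changes ranged from -1.36 to 0.34 (the lowest, of Cbx7 in Del(d1-d4) at 120 h, being -0.75 without wild-type replicate 3), the smallest adjusted p was 0.0508, and 10 of 72 pairs had an unadjusted p under 0.05. In these 4 lines between 0.199% and 1.19% of all genes passed. The largest differences were those of Cbx7, which was higher in Del(CBS1-5) at all 3 stages and in Del(sub-TAD1) at 96 h.

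**Figure D4:**
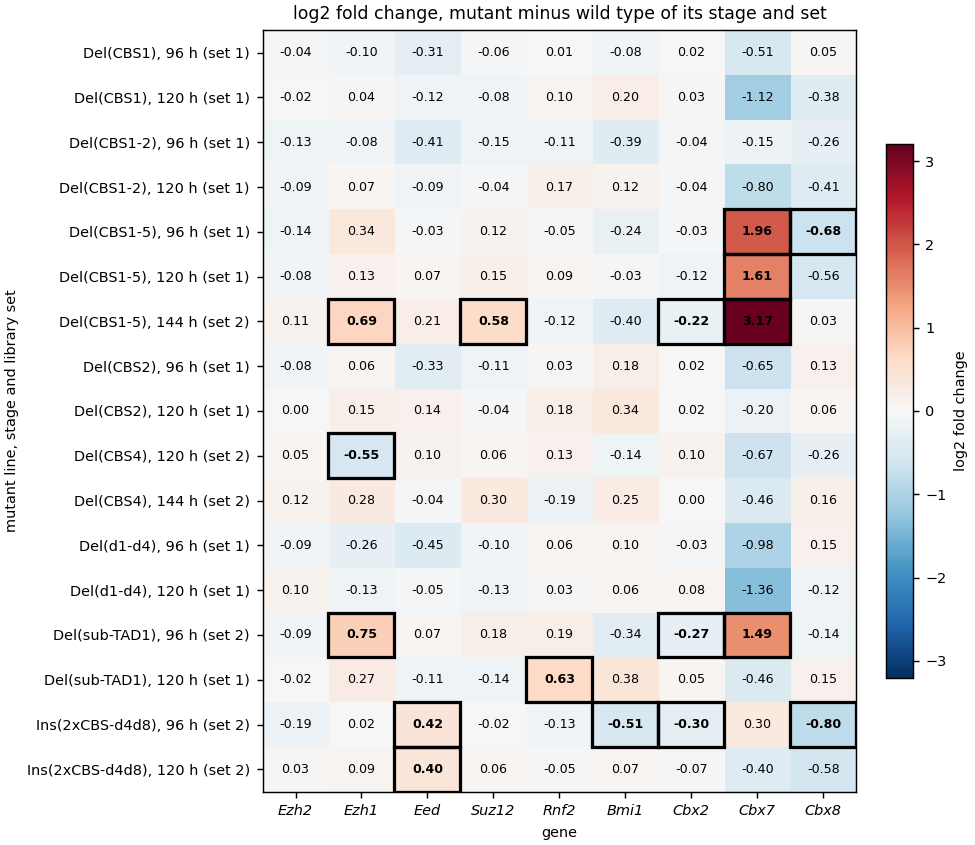
Log2 fold change of each gene (x axis) in each mutant line and stage (y axis, with the library set) against the wild type of the same stage and set, as a number and as a colour (red higher, blue lower). Boxed values passed the test (limma, adjusted p under 0.05). Cbx7 stands out in Del(CBS1-5) at 96, 120 and 144 h (1.96, 1.61 and 3.17), and no value of Ezh2 is boxed.

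Ezh2 passed in none of the 17 comparisons, with log2 fold changes from -0.19 to 0.12. Over the same comparisons those of Ezh1 ranged from -0.55 to 0.75, of Eed from -0.45 to 0.42, of Suz12 from -0.15 to 0.58, of Rnf2 from -0.19 to 0.63, of Bmi1 from -0.51 to 0.38, of Cbx2 from -0.30 to 0.10, of Cbx7 from -1.36 (-0.75 without wild-type replicate 3) to 3.17 and of Cbx8 from -0.80 to 0.16. The largest difference of Ezh2 was in Ins(2xCBS-d4d8) at 96 h, at 96.8 and 100.1 FPKM against 103.6 to 124.2 (-0.19 ± 0.09, adjusted p = 0.1995). That of Eed was in Del(d1-d4) at 96 h, at 47.9 and 52.5 FPKM against 61.1 to 80.5 (-0.45 ± 0.11, adjusted p = 0.0508), where the groups were apart but the test was not passed. The same controls, at 61.1, 65.1 and 80.5 FPKM in replicates 1 to 3, served for other lines at 96 h. There Eed was at -0.31 in Del(CBS1), -0.33 in Del(CBS2), -0.41 in Del(CBS1-2) and -0.03 in Del(CBS1-5), none of which passed. Ezh1 was higher in Del(CBS1-5) at 144 h, at 7.26 and 7.72 FPKM against 3.53 to 5.82 in 4 wild-type libraries (log2 fold change 0.69 ± 0.15, adjusted p = 0.000369). It was also higher in Del(sub-TAD1) at 96 h, at 5.70, 7.51 and 6.94 FPKM against 4.29, 3.03 and 4.61 (0.75 ± 0.14, adjusted p = 0.000289), and lower in Del(CBS4) at 120 h, at 3.41 and 3.14 FPKM against 4.77, 5.53 and 4.27 (-0.55 ± 0.16, adjusted p = 0.0158). In none of the 3 did the libraries of the 2 groups overlap, although the 2 wild-type libraries at 144 h outside the time course (5.39 and 5.82 FPKM) lay above those in it. Against these 2 alone the log2 fold change in Del(CBS1-5) was 0.41 (limma adjusted p = 0.0378), and with only the compared libraries in the fit the adjusted p was 0.0919. The Del(CBS4) call was lost without the time-course replicate 1 at 120 h or without either Del(CBS4) library (limma adjusted p = 0.0826, 0.0557 and 0.192). In these 2 libraries 4 neural genes summed to 70.4 to 110 FPKM against 6.65 to 27.1 in the controls, and 4 somite genes to 216 to 307 against 408 to 505, whose part in the result was not tested. The effect of Del(CBS4) on Ezh1 differed between 144 h and 120 h (0.83 ± 0.21 on the log2 scale, adjusted p = 0.0248, where 2.56% of all genes passed), with an Ezh1 log2 fold change of 0.28 at 144 h. This difference did not pass in 6 of 21 alternatives, among them those without the time-course replicate 1 or Del(CBS4) replicate 2 at 120 h or without either Del(CBS4) library at 144 h (limma adjusted p = 0.0804, 0.176, 0.134 and 0.069), and it was 0.52 with controls outside the time course (adjusted p = 0.0835).

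Suz12 was higher in Del(CBS1-5) at 144 h, at 39.5 and 36.1 FPKM against 24.3, 26.4, 25.1 and 25.3 FPKM in the wild type (log2 fold change 0.58 ± 0.09, adjusted p = 9.87e-06). The 4 wild-type libraries lay close together and the 2 mutant libraries above all of them. The effect exceeded that at 120 h by 0.42 ± 0.14 (limma adjusted p = 0.049, where 7.64% of all genes passed), which was not past the threshold in 15 of 21 alternatives, and the 2 stages belong to different sets. Eed was higher in Ins(2xCBS-d4d8), at 77.4 and 74.3 FPKM against 61.9, 55.9 and 52.4 at 96 h (0.42 ± 0.11, adjusted p = 0.0138) and at 77.1 and 79.8 against 66.8, 58.1 and 54.5 at 120 h (0.40 ± 0.11, adjusted p = 0.0368). In both, the wild-type library outside the time course was the highest control. The 96 h call was lost without the time-course replicate 2 or either mutant library (limma adjusted p = 0.0671, 0.166 and 0.063). With wild-type controls of either set the 96 h value was 0.18 outside the time course and 0.29 with all of them (adjusted p = 0.199 and 0.121). The 120 h call was lost without either time-course library or either mutant library (0.0677, 0.101, 0.16 and 0.246). In the 2 mutant libraries at 120 h the 6 naive pluripotency genes summed to 5.92 and 8.64 FPKM against 20.8 to 26.5 in the controls, and the part of this in the result was not tested.

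Of the PRC1 core, Rnf2 was higher in Del(sub-TAD1) at 120 h, at 45.3 and 48.9 FPKM against 31.1, 30.4 and 29.3 FPKM (log2 fold change 0.63 ± 0.15, adjusted p = 0.00554), a call that was lost without mutant replicate 2 (adjusted p = 0.114). With all wild-type libraries of the stage as controls, of either set, it was 0.39 (adjusted p = 0.149), and the 3 wild-type libraries of set 2 at 120 h, at 38.6 to 48.1 FPKM, overlapped with the mutant. In these libraries 3 fibroblast genes summed to 17.6 and 20.3 FPKM against 2.31 to 3.06 in the controls, whose part in the result was not tested. At 96 h the replicates of this line disagreed, at 60.6, 42.1 and 39.8 FPKM, and Rnf2 did not pass. Bmi1 was lower in Ins(2xCBS-d4d8) at 96 h, at 9.32 and 12.3 FPKM against 13.2, 13.9 and 19.2 (-0.51 ± 0.17, adjusted p = 0.0486). Without the time-course replicate 2 this was -0.34 (adjusted p = 0.256) and without the mutant replicate 1 -0.31 (adjusted p = 0.518). With wild-type controls of either set it was -0.22 outside the time course and -0.35 with all of them (adjusted p = 0.336 and 0.214).

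Cbx2 and Cbx8 were lower wherever they passed. In Ins(2xCBS-d4d8) at 96 h, Cbx2 was at 44.2 and 45.4 FPKM against 54.8, 55.7 and 55.2 (log2 fold change -0.30 ± 0.08, adjusted p = 0.0091) and Cbx8 at 0.396 and 0.457 against 0.589, 0.953 and 0.961 (-0.80 ± 0.20, adjusted p = 0.00729). Both calls were lost without the mutant replicate 1 (adjusted p = 0.132 and 0.138). In these 2 libraries the summed FPKM of 6 primitive streak and neuromesodermal genes was 399 to 450 against 140 to 329 in their controls, and that of the proliferation genes 627 to 637 against 667 to 746. Their part in the result was not tested. In Del(CBS1-5), Cbx2 was at 48.2 and 52.5 FPKM at 144 h against 54.8 to 63.1 (-0.22 ± 0.07, adjusted p = 0.0182), and Cbx8 was at 0.351 and 0.437 at 96 h against 0.638, 0.896 and 0.567 (-0.68 ± 0.20, adjusted p = 0.0185). Of these, the Cbx2 call was lost without the time-course replicate 1 or the mutant replicate 1 (adjusted p = 0.0626 and 0.258), and the Cbx8 call without wild-type replicate 2 or either mutant library (0.153, 0.236 and 0.0589). In Del(sub-TAD1) at 96 h, Cbx2 was at 53.3, 43.3 and 41.2 FPKM against the 3 controls at 54.8 to 55.7 (-0.27 ± 0.07, adjusted p = 0.0055), which became -0.20 (adjusted p = 0.0775) without replicate 3. Wild-type libraries of set 1 at 96 h were at 42.3 to 48.4 FPKM, and with controls of either set the Cbx2 calls at 96 h in Del(sub-TAD1) and Ins(2xCBS-d4d8) were lost (-0.12 and -0.15 with all wild-type libraries of the stage).

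Cbx7 was at 11.4 and 11.1 FPKM in Del(CBS1-5) at 96 h against 1.93, 1.66 and 6.83 in the wild type (log2 fold change 1.96 ± 0.46, adjusted p = 0.00397). At 120 h it was at 7.68 and 9.53 FPKM against 1.95, 1.58 and 6.54 (1.61 ± 0.46, adjusted p = 0.0255), and at 144 h at 22.2 and 22.4 FPKM against 1.38 to 4.84 in 4 libraries (3.17 ± 0.44, adjusted p = 7.26e-07). The level at 144 h lay within the wild-type range at 72 h, and all 6 mutant libraries lay above all 10 of their controls. Without wild-type replicate 3, the only control near the mutant values, the log2 fold change was 2.59 at 96 h and 2.22 at 120 h (adjusted p = 2.23e-06 and 3.12e-05). The 96 h call was lost without either mutant library (adjusted p = 0.0536 and 0.0505), and the 120 h call without either Del(CBS1-5) library or wild-type replicate 1 or 2 (adjusted p up to 0.217). The effect did not differ between 144 h and 120 h past the threshold (1.56 on the log2 scale, adjusted p = 0.133), and the 2 stages belong to different sets.

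In Del(sub-TAD1) at 96 h, Cbx7 was at 3.83, 10.7 and 10.5 FPKM against 2.93, 2.29 and 2.69 (log2 fold change 1.49 ± 0.41, adjusted p = 0.0132). Replicate 1 stood apart from the other 2, and without it the value was 1.97 (adjusted p = 0.0013), while without replicate 2, replicate 3 or the time-course replicate 1 the adjusted p was 0.0876, 0.088 and 0.0544. At 120 h, Cbx7 was at 2.01 and 1.93 FPKM in this line and did not pass (-0.46 ± 0.46, and 0.16 without wild-type replicate 3). The difference between the 2 stages was -1.95 on the log2 scale (adjusted p = 0.0722) with all libraries and -2.43 (adjusted p = 0.00764) without replicate 1 at 96 h, when Suz12 (-0.47), Rnf2 (0.64), Bmi1 (0.86) and Cbx2 (0.44) also differed between the stages. Here too the 2 stages belong to different sets.

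At 96, 120 and 144 h, libraries with high Cbx7 also had high levels of naive pluripotency genes and of Dppa3, 1 of 2 germ cell genes listed. In Del(CBS1-5) at 96 h the sum of these 2 genes, 22.9 and 24.0 FPKM, was all Dppa3. In replicate 2 of this line at 144 h the sum was 41.3 FPKM, with Dppa3 at 36.4. The wild-type libraries at 72 h differed from this, as Dppa3 was at only 0.276 and 0.170 FPKM in replicates 1 and 2. Cbx7 was at 16.7 FPKM in replicate 1 and at 22.7 FPKM in replicate 2, the wild-type library with the most Cbx7. The 2 germ cell genes summed to 6.94 FPKM in replicate 1, mostly from the gene other than Dppa3, and to 0.17 FPKM in replicate 2. The naive pluripotency sum was 222 and 229 FPKM in Del(CBS1-5) at 96 h, 138 and 156 at 120 h and 268 and 267 at 144 h, and 68.3, 181 and 202 in Del(sub-TAD1) at 96 h. In the controls it was 31.9 to 111, 9.56 to 87.7, 4.31 to 34.6 and 41.2 to 76.9 FPKM in the same order. Over the 51 libraries at 96, 120 and 144 h, Cbx7 was at 6.83 to 22.4 FPKM in the 9 with a sum above 100 FPKM, and at 0.901 to 6.54 in the other 42, wild-type replicate 3 at 120 h being the highest of these and the next at 4.84. The germ cell gene Dppa3 was at 36.2 and 36.4 FPKM in Del(CBS1-5) at 144 h against 0.208 to 0.597 in its controls, and at 8.35 and 7.46 FPKM in wild-type replicate 3. Primitive streak and neuromesodermal genes summed to 53.5 to 58.6 FPKM in Del(CBS1-5) at 144 h against 104 to 207, and somite genes to 340 to 343 against 166 to 234. Endoderm genes summed to 4.68 and 7.26 FPKM against 15.2 to 20.3, and neural genes to 22.7 and 24.9 against 40.5 to 69.96. The part of these genes and cell types in the Cbx7, Suz12, Ezh1 and Cbx2 results was not tested.

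**Figure D5:**
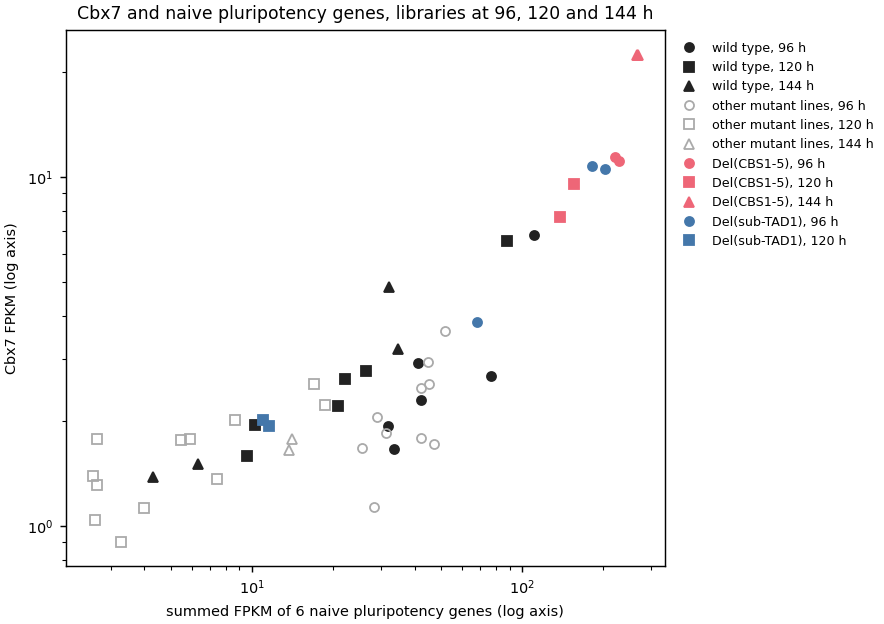
FPKM of Cbx7 (y axis, log scale) against the summed FPKM of 6 naive pluripotency genes (x axis, log scale) in the 51 libraries at 96 h (circles), 120 h (squares) and 144 h (triangles). The 6 Del(CBS1-5) libraries (red) and 2 of the 3 Del(sub-TAD1) libraries at 96 h (blue) lie at the upper right, together with wild-type replicate 3 at 96 h, which was at 6.83 FPKM.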

How the data were processed

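Poly(A) RNA of pooled stembryos was sequenced with a stranded kit. The authors trimmed reads with cutadapt 1.16, mapped them to mm10 with STAR 2.7.7a, kept uniquely mapped reads and computed FPKM per gene with Cufflinks 2.2.1 (default settings, gene models from Ensembl 102). The deposited FPKM values were used as they stand. The use of strand is not given in the sources used here, so reads of overlapping genes cannot be told apart (Trmt1l and Gm36527 with Rnf2, Apobec3 with Cbx7, Gm26563 with Suz12 over 12515 bases, Gm26625 with Ezh2 over 5039 bases, and shorter ones with Ezh2 and Eed).

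Genes with a mean of at least 1 FPKM in at least 1 condition were tested with limma 3.58.1 (R 4.3.3) on log2(FPKM + 0.1), with Benjamini-Hochberg adjustment over all genes tested (13634 in the time course, 17074 over all 61 libraries) and a threshold of 0.05; fold changes of low genes are understated on this scale. The time course was fitted on its own 16 libraries. Mutants were fitted in 1 model of all 61 libraries, with 1 coefficient for each genotype, stage and library set, the sets being split at 100 FPKM of mt-Co2 and mt-Co3. The paper calls the 2 samples of a mutant or control independent and speaks of biological replicates. Labels do not say whether replicates were separate cultures, so p-values measure the spread between these libraries. Correlations of replicate differences between time-course stages ran from -0.0983 to 0.18 (28 pairs of stages). In the wild-type libraries of set 1, deviations at 96 h and 120 h correlated at 0.155 to 0.431 (3 pairs). These ranges overlap, so they do not settle whether replicate numbers pair libraries. The estimates given are unpaired, and a replicate block changed no call from 96 h to 120 h in these wild-type libraries. No 2 libraries held identical values. The number of fragments behind a value was read from the Cufflinks bounds and covers counting error only. The tests were also tried on simulated data with independent random spread and no outlying libraries. The outcome is not given here and lends no support to single calls.

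The 9 genes were given by the rule, and the partners always named, the largest called changes of the wider list, the 3 genes most like Cbx8 and Cbx7, the marker lists and the checks of the lines were chosen with earlier results of these data known. Alternatives were another pseudocount (1 FPKM), no filter or a filter of 5 FPKM, median scaling, a variance trend, a replicate block, other controls, other sets of libraries in the fit and leaving out each library. Of the wider list, 1 gene is not reported here and enters none of its counts. Permutation tests used scipy 1.17.1.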

Additional observations from a re-analysis of the deposited data

Results flagged for a closer look

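Among 27 groups of 4 wild-type libraries (9 genes at 96, 120 and 144 h), for which chance alone marks about 1 in 20, 2 had a library far from the other 3. Ezh2 at 120 h outside the time course was at 137 FPKM in replicate 4 and at 110 to 113 in replicates 1 to 3 (gap ratio 0.884), and Suz12 was at 32.6 FPKM in the same library and at 24.8 to 25.9 in the others (gap ratio 0.860). Replicate 4 is the only one of these libraries in set 2, the others being in set 1.

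In the main fit the effect of a line differed between stages past the threshold in 2 of the pairs of 9 genes and 9 differences. Over all genes 1.56% of such pairs passed. The effect of Del(CBS1-5) on Suz12 was higher at 144 h than at 120 h by 0.42 on the log2 scale (adjusted p = 0.049), and that of Del(CBS4) on Ezh1 by 0.83 (adjusted p = 0.0248). The former did not pass in 15 and the latter in 6 of 21 alternatives, and the former compares stages of different sets. Of the pairs of the 9 genes, 16 had an unadjusted limma p under 0.05.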

How the results depend on the processing

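Of the time-course counts, 8 of 9 genes between 168 h and 72 h became 8 to 9 without single libraries, 8 over any stage became 7 to 8, and 9 neighbouring pairs became 6 to 12, or 15 with all 61 libraries in the fit. With a filter of 5 FPKM, Cbx8 was no longer tested. All 4 paralogue ratios passed without each library in turn (4 to 4 ratios). The 6 wild-type calls from 96 h to 120 h became 3 to 5 without single libraries. The 17 mutant calls became 14 to 21 without single libraries and 4 with only the compared libraries in each fit, a fit with fewer libraries to estimate the spread. The 2 called differences between stages became 0 with only the compared libraries, 1 with no filter, with median scaling or without wild-type replicate 3 at both stages, 4 with the replicate block, 5 with controls outside the time course and 5 with all wild-type controls. They became 0 to 7 without single libraries, 42 of which moved the count by over 1.5 times: it was 7 without Del(sub-TAD1) replicate 1 at 96 h, 0 without Del(CBS4) replicate 2 at 120 h or either Del(CBS4) library at 144 h, and 1 without the others.

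Of the 17 mutant calls, 2 passed under every alternative, Suz12 (0.51 to 0.64) and Cbx7 (2.75 to 3.87) in Del(CBS1-5) at 144 h, and none of the 17 changed sign. With the replicate block, calls were lost for Cbx2 in Del(CBS1-5) at 144 h, for Ezh1 (0.21) and Cbx2 (-0.13) in Del(sub-TAD1) at 96 h, and for Eed, Bmi1 and Cbx2 at 96 h and Eed at 120 h in Ins(2xCBS-d4d8); no label ties these numbers between a mutant and its controls, and differences between replicates 1 and 2 correlated at -0.134 to 0.141 in 19 pairs of a mutant and its controls. With controls outside the time course, which also pools both sets, Cbx2 was at -0.04 in Del(sub-TAD1) and -0.07 in Ins(2xCBS-d4d8) at 96 h and -0.14 in Del(CBS1-5) at 144 h. With a pseudocount of 1 FPKM, the rise of Cbx8 from 72 h to 168 h was 0.98 on the log2 scale, and Cbx8 was at -0.28 in Del(CBS1-5) (adjusted p = 0.0689) and -0.36 in Ins(2xCBS-d4d8) at 96 h. With the replicate block, called values that moved by over 1.5 times were those of Ezh1 in Del(CBS1-5) at 144 h (0.41) and Del(CBS4) at 120 h (-1.08) and of Cbx7 in Del(sub-TAD1) at 96 h (2.45). Over all genes, 18133 mutant calls became 32419 with the replicate block and 35213 with controls outside the time course, of either set. Reversed values were those of genes that had not passed: Eed over the time course (-0.067 without the 168 h replicate 2, while it passed at 0.24 without replicate 1) and Cbx7 in the wild type from 96 h to 120 h (-0.65 to 0.59, with 0.59 without replicate 3 at 96 h, 0.20 without replicate 1 and 0.34 without replicate 2 at 120 h). The cause was not tested. Depth limits Cbx7 and Cbx8 most, with as few as 12.1 and 14.7 fragments in a library.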

Other observations

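Other Polycomb genes were also shifted in Del(CBS1-5) at 144 h, where 16 of 35 genes of the wider list passed the limma test, 12 higher and 4 lower, against 30.7% of all genes. Jarid2 was at 35.5 and 36.5 FPKM against 14.7 to 20.2 in 4 wild-type libraries (log2 fold change 1.04 ± 0.14, adjusted p = 5.09e-07), Mtf2 at 45.4 and 46.7 against 25.9 to 35.4 (0.60 ± 0.12), Phf19 at 4.16 and 4.49 against 0.792 to 0.988 (2.17 ± 0.23) and Phc1 at 70.3 and 77.6 against 34.0 to 45.9 (0.90 ± 0.11). The genes Phc2 (-0.33 ± 0.07), Yaf2 (-0.68 ± 0.10), Ring1 (-0.43 ± 0.15) and Bcorl1 (-0.90 ± 0.12) were lower, and of these 4 only Ring1 had mutant and wild-type ranges that overlapped. Phf19, Phc2, Yaf2 and Bcorl1 were picked after their values were seen. Of these 8, Jarid2, Mtf2 and Phc1 fell and Phc2, Yaf2, Ring1 and Phf19 rose between 72 h and 168 h in the wild type, while Bcorl1 did not pass.

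Marker sums not given above varied over the 61 libraries from 0.204 to 57.98 FPKM for 3 cardiac genes, from 0.202 to 27.4 for 3 endothelial genes, from 2.06 to 545 for 4 presomitic mesoderm genes and from 4.68 to 202 for 3 endoderm genes. The 2 highest cardiac sums, 37.4 and 57.98, were those of the wild-type time course at 144 h.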
